A study of Mus musculus with 28 samples.

Results

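The comparison described here lies within the mice fed conjugated linoleic acid (CLA) and asks what continued feeding changed: 6 arrays of days 7, 10 and 17 were set against 4 arrays of days 3 and 4, chosen by the day and diet in their titles. These 10 arrays belong to a series of 28, and the 10 control-diet arrays of the same 5 days served as a check. The animals were 9-week-old mice, their strain spelled C57BK/6J by the submitters, given either control food or food with 0.5% trans-10, cis-12 CLA. No genetic alteration is named for either diet group. Total RNA (15 µg per labelling) came from retroperitoneal fat pads, both pads of 10 mice being pooled, and was hybridised to Affymetrix oligonucleotide arrays with 2 arrays for each diet and day. The labels do not settle whether these arrays hold separate pools: 10 mice a group would give the 140 mice of the series record, and 10 an array would give 280. For this reason the day, not the array, was the unit of replication (n = 3 days against 2), and errors are standard errors (SE) of that fit.

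Trans-10, cis-12 CLA is a fatty acid isomer known to strip lipid from white adipose tissue of mice. The retroperitoneal pad is a white depot in which some adipocytes can take on a brown-like, thermogenic state with mitochondria uncoupled by Ucp1. Lipid loss in fat is also known to draw in macrophages, which clear lipid and dead adipocytes, divide locally and export cholesterol. All values are on the log2 scale, on which 1 unit is a doubling of signal.

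The pads expressed adipocyte genes in every group. Adipoq (adiponectin) lay between 12.63 and 12.88 and Fabp4, the fatty acid carrier of adipocytes, between 13.50 and 13.84 on the 10 CLA arrays, where the highest value of the whole series was 14.18. The array medians over genes lay between 5.38 and 5.50 under CLA and between 5.34 and 5.40 under the control diet. The 2 arrays of a diet and day correlated at 0.99 to 0.995 across genes, which are not independent replicates. The gap between the 3' and 5' control probe sets of Gapdh, a sign of RNA integrity, was 0.42 to 1.20 on the earlier and 0.32 to 0.87 on the later CLA arrays, so the periods overlapped. The array number limits precision.

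Between days 3 to 4 and days 7 to 17 of CLA feeding, 820 of 18194 genes rose (4.51% of genes tested) and 960 fell (5.28%), at an adjusted p under 0.05 from limma with Benjamini-Hochberg adjustment over all genes. Of these, 157 rose and 225 fell by at least 1 log2 unit. On the control arrays of the same days 0 genes passed (0%) in limma, the smallest adjusted p being 0.948. At an unadjusted p under 0.05 there were 916 control genes, where 5% of the genes tested would be 910, against 4011 under CLA. The test of the CLA change minus the control change called 257 genes higher (1.41%) and 400 lower (2.2%). The later and earlier CLA arrays did not overlap for 812 genes on the high side and 1000 on the low side, compared with 193 and 32 on the control arrays. The median change over all genes was 0.00 under CLA and 0.03 under the control diet. These counts fell by over 1.5 times when day 3 was left out (347 higher and 490 lower), when day 10 was left out (337 and 517), when day 17 was left out for rises (493) and when replicate 2 of every group was left out (263 and 337).

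To separate what resolved from what was gained, each gene that moved was classed by its CLA minus control difference in each period, with 1 log2 unit as the limit. This is a description with no test of its own, since the earlier CLA arrays enter both the call and the class. A difference of at least 1 on days 3 to 4 that came under 1 on days 7 to 17 was termed resolved, and the reverse newly gained. Resolution covered 360 genes, of which 119 had been low under CLA and rose and 241 had been high and fell. New gains covered 143 genes, 109 upwards and 34 downwards. Another 92 genes intensified in the same direction (70 up, 22 down), and 269 eased yet stayed past the limit (229 of them falling). The remaining 916 were under 1 in both periods, and 0 genes crossed from one side to the other. If the change itself had also to reach 1, there were 96 resolved and 60 newly gained genes. The limit divides near neighbours: Fap (later difference 1.00) is counted as newly gained and Pdgfra (0.99) is not.

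**Figure D1:**
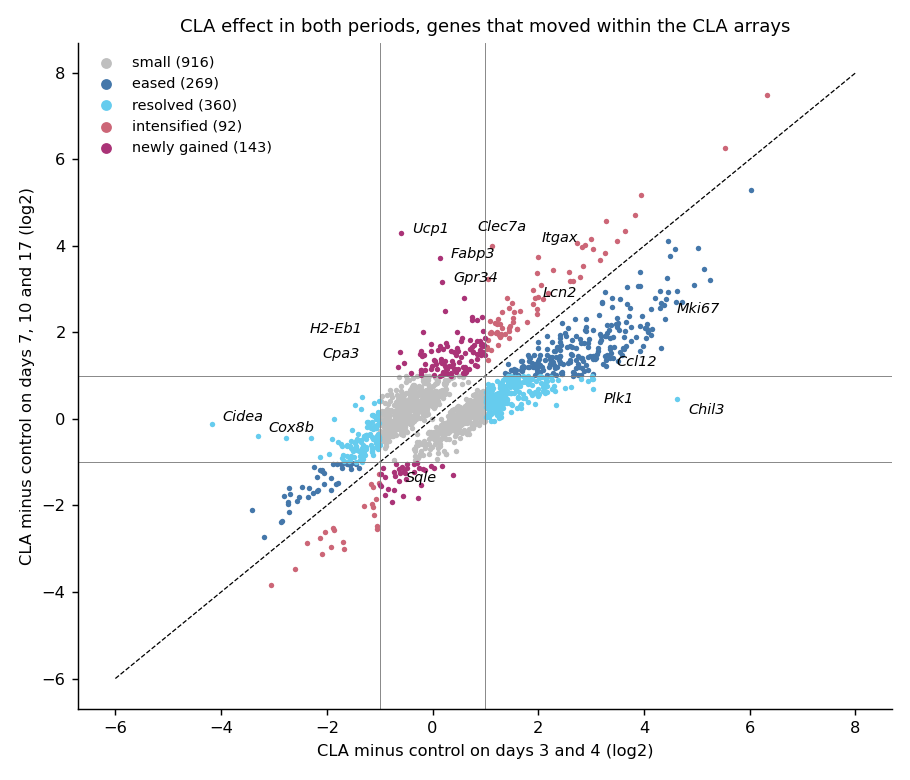
CLA minus control on days 3 and 4 (horizontal axis, log2) against days 7, 10 and 17 (vertical axis, log2) for the 1780 genes that moved within the CLA arrays, each point a gene, coloured by class, with class sizes in the key. The dashed line marks equal differences and the grey lines mark 1 and -1. Ucp1 stands at 4.30 on the vertical axis from -0.59 on the horizontal one, and Chil3 at 0.45 from 4.63.

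Thermogenic adipocyte genes were among the largest rises. Of the 18 genes measured in a list of brown and thermogenic adipocyte genes, 7 rose and 0 fell, with a median change of 0.53 against 0.00 for all genes. The rise differed from the control change for 6 of the 7, Elovl3 being the exception. For 4 of them the rise undid an earlier loss, and 3 were newly gained.

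Ucp1, the uncoupling protein that releases mitochondrial energy as heat, measured 5.40 and 5.46 on the arrays of day 3 and 6.62 and 6.96 on those of day 4. On days 7 to 17 it lay between 10.13 and 11.86 with a median of 10.69, while the 10 control arrays stayed between 5.56 and 7.83. No later CLA array overlapped an earlier one, which was a condition for naming the largest changes. The later arrays were also above every control array. The rise was 4.79 ± 0.37 (SE, adjusted p = 2.66e-05) and exceeded the control change by 4.88 ± 0.52 (adjusted p = 0.000797). CLA minus control went from -0.59 to 4.30, a new gain.

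Cidea, a lipid droplet protein of brown adipocytes, started from a loss instead. Its earlier CLA arrays read 5.43, 6.22, 6.25 and 6.03 against 9.98 to 10.50 on control arrays of those days. The later CLA arrays lay between 8.80 and 10.75 (median 9.50), a range that spans the later control arrays (9.14 to 10.13). The rise was 3.70 ± 0.31 (adjusted p = 3.61e-05), and CLA minus control went from -4.17 to -0.13. Cox8b, a muscle and brown fat subunit of cytochrome c oxidase, followed the same course, from 6.31, 7.47, 7.49 and 7.26 to between 8.87 and 10.82. It rose by 2.73 ± 0.30 (adjusted p = 0.000235), with CLA minus control passing from -3.31 to -0.39.

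Cox7a1, another tissue-specific oxidase subunit, was at control level first and above it later. It read 6.65, 7.06, 6.91 and 7.10, then 8.38 to 9.76, a rise of 2.19 ± 0.27 (adjusted p = 0.000515). Elovl3, a fatty acid elongase of brown fat, rose by 1.41 ± 0.36 (adjusted p = 0.0311), though this call was lost in 12 of 38 other settings. Its CLA minus control went from 0.94, just under the limit of 1, to 2.37, so its class of newly gained follows an earlier excess. Otop1, a proton channel, rose by 1.76 ± 0.31 and Ppargc1a, the coactivator of mitochondrial biogenesis, by 0.96 ± 0.17. Both had been low under CLA, at -1.86 and -1.02 relative to control, and both came within 1 of control.

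Other members of the list did not pass. Dio2, the thyroid hormone deiodinase, changed by -0.22 ± 0.10, Zic1, a marker of classical brown fat, by -0.07 ± 0.10, and Prdm16, the brown fat determination factor, by 0.34 ± 0.10 (adjusted p = 0.0547). These genes were dim, with earlier and later CLA means of 3.93 and 3.71 (Dio2), 2.66 and 2.59 (Zic1), and 4.07 and 4.42 (Prdm16). A lack of change is therefore not shown for them. Ucp3, the muscle-type uncoupling protein, remained low under CLA in both periods (CLA minus control -2.24 and -2.05). Within the later period Ucp1 was not level: its arrays read 10.92 and 11.86 on day 10 and 10.13 and 10.34 on day 17. Without replicate 2 of every group 4 genes of the list rose.

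Fabp3, the fatty acid carrier of heart, muscle and brown fat, had the largest rise after Ucp1 among the genes named. It measured 4.62, 4.87, 5.10 and 5.48 on the earlier CLA arrays and 7.47 to 10.24 (median 8.69) on the later ones, and 4.05 to 5.52 on all control arrays. The gain was 3.77 ± 0.41 (adjusted p = 0.000203). Since several of these genes are also muscle genes, a list of skeletal muscle markers was measured beside them. Of its 15 genes 0 were called, with a median change of 0.62 under CLA and 0.22 under control. All 15 changes under CLA were above 0, from 0.21 to 0.86, the sign of the rises beside them. Its summed signal ran from 10.62 to 13.68 on the earlier and 9.73 to 13.66 on the later CLA arrays, and from 11.80 to 14.66 on control arrays. The muscle marker Myl1 changed by 0.62 ± 0.60. The part of muscle RNA in the rises of Fabp3, Cox7a1 and Cox8b was not tested. In pooled tissue, more cells of a type and more RNA per cell cannot be told apart, here and below.

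**Figure D2:**
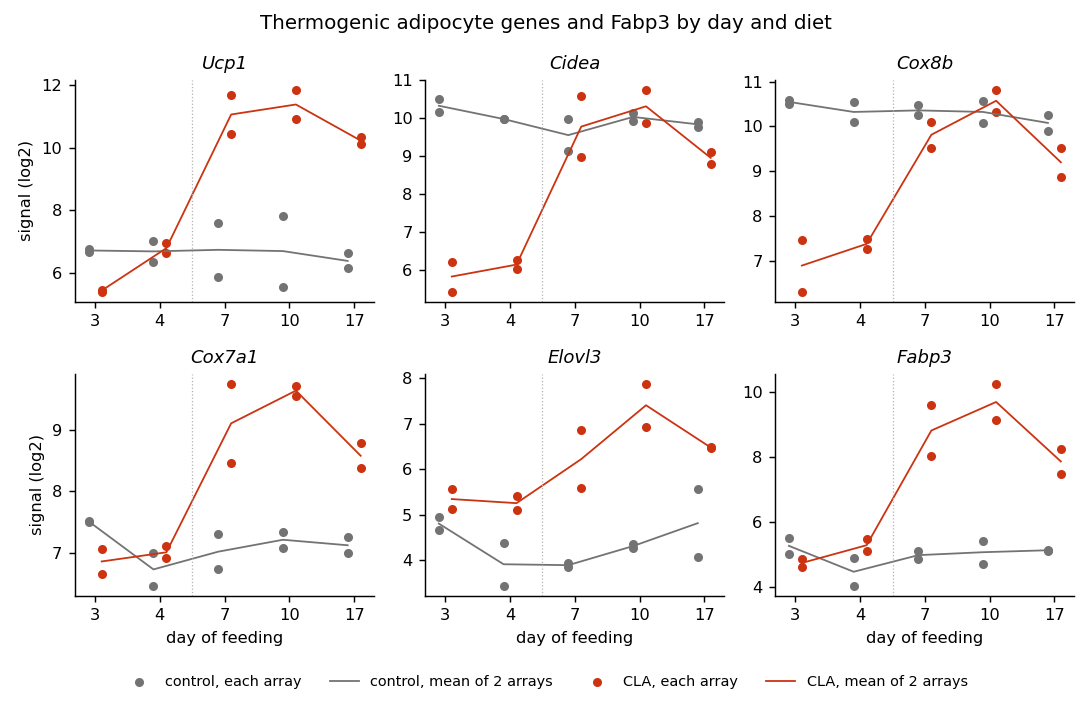
Signal (log2, vertical axes) of 5 thermogenic genes and Fabp3 on the 5 days (horizontal axes, days not to scale), with every array as a point and lines through the means of the 2 arrays, CLA in red and control in grey. The dotted line separates the periods: Ucp1, Cox7a1 and Fabp3 leave the control level after it, whereas Cidea and Cox8b return to it.

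Mitochondrial genes recovered part of their loss in smaller steps. Of 28 oxidative phosphorylation genes 8 rose, of 24 fatty acid oxidation genes 8 rose and 1 fell, of 19 citrate cycle genes 5 rose, and of 19 genes of branched-chain amino acid breakdown 7 rose. Their medians were 0.29, 0.32, 0.23 and 0.30. Median CLA minus control moved from -0.55 to -0.20, from -0.64 to -0.22, from -0.73 to -0.49 and from -1.49 to -1.15 in that order. Sdhb, a subunit of succinate dehydrogenase, rose from 10.47 to 10.82 on the earlier arrays to 11.24 to 11.33 on the later ones (0.60 ± 0.09, adjusted p = 0.00172). Suclg1, a succinyl-CoA ligase subunit, rose by 0.68 ± 0.08 (adjusted p = 0.00036) and Idh3b, a subunit of isocitrate dehydrogenase, by 0.63 ± 0.09. Acadvl, the very long chain acyl-CoA dehydrogenase, rose by 0.73 ± 0.12, Acaa2, the last thiolase of the spiral, by 0.72 ± 0.13, and Decr1, needed for unsaturated chains, by 0.64 ± 0.11. Acot1, an acyl-CoA thioesterase, was the member that fell (-0.55 ± 0.13). Mccc2 of leucine breakdown rose by 0.78 ± 0.12 and Bckdha, of the branched-chain keto acid dehydrogenase, by 0.73 ± 0.16, yet both stayed below control at -1.90 and -1.20. Pdk4, which holds back pyruvate oxidation, rose by 1.04 ± 0.25. These counts depended on single days and arrays. Without day 10 the counts of rises were 1, 4, 3 and 2, without day 3 they were 3, 1, 3 and 7, and without replicate 2 of every group they were 1, 2, 2 and 0. Oxidative phosphorylation had 3 rises without CLA day 7 replicate 2 alone, and oxidative phosphorylation and branched-chain amino acid breakdown each had 4 without CLA day 10 replicate 2. The rise differed from the control change for 1 of 8, 3 of 8, 2 of 5 and 1 of 7 genes.

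Adipocyte identity did not return. In a list of 23 adipocyte genes 4 rose and 0 fell, and the median CLA minus control was -1.42 on days 3 to 4 and -1.69 on days 7 to 17. The 4 were Thrsp, a lipogenic nuclear protein (1.14 ± 0.12, adjusted p = 0.000162), Klf15 (0.73 ± 0.12), the insulin-regulated glucose transporter Slc2a4 (0.63 ± 0.13) and the glyceroneogenic enzyme Pck1 (0.65 ± 0.18). Later CLA minus control for them lay between -2.37 and -1.78. The rise differed from the control change for 2 of the 4, and not for Klf15 and Pck1 (adjusted p = 0.125 and 0.365). Without day 10 the count was 2, and without replicate 2 of every group, or replicate 2 of CLA day 10 alone, it was 1.

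Adipoq changed by 0.05 ± 0.10 and CLA minus control was -0.90 and -0.94. Pparg, the master regulator of adipocytes, changed by 0.32 ± 0.12 (adjusted p = 0.121) and Cebpa, its partner, by 0.32 ± 0.16. Leptin (Lep), the adipocyte satiety hormone, read 9.42, 9.06, 8.41 and 8.36 and then 7.78 to 8.31, a change of -0.72 ± 0.21 that missed the threshold (adjusted p = 0.0567). Its arrays did not overlap between periods. The lipases Pnpla2 and Lipe changed by -0.13 ± 0.17 and -0.39 ± 0.21, and Lpl by -0.04 ± 0.10.

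Fatty acid synthesis genes moved in both directions, 2 higher and 4 lower of 23. Fasn, the fatty acid synthase, changed by -0.21 ± 0.11, Scd1, the main desaturase, by -0.19 ± 0.10, and Elovl6, the elongase of palmitate, by -0.31 ± 0.26. Elovl6 was at -3.41 and -3.40 relative to control, one of the deficits that did not narrow. Acss2, which activates acetate, fell further, by 1.11 ± 0.18 (adjusted p = 0.00269), to -2.96 relative to control. Other genes below control fell as well: Mogat1, an acyltransferase (fell by 0.79 ± 0.19, to -3.85), Rbp4, the retinol carrier (fell by 0.63 ± 0.16, to -2.76), H2-Q10, a class I-like gene (fell by 1.37 ± 0.28, to -3.11), Lrg1, a secreted glycoprotein (fell by 1.33 ± 0.24, to -2.46), and Opn3, an opsin (fell by 0.97 ± 0.17, to -2.84). The difference from the control change passed for Acss2 and Opn3 (adjusted p = 0.0496 and 0.0218) and not for Mogat1, Rbp4, H2-Q10 and Lrg1 (adjusted p = 0.152, 0.176, 0.22 and 0.0517). Genes that rose from a deficit were Sult1a1, a sulfotransferase (1.17 ± 0.18), Apoc1, an apolipoprotein (1.07 ± 0.15), Mturn (1.04 ± 0.16) and Abca8a, a transporter (0.87 ± 0.16). Inmt, a methyltransferase, rose by 2.35 ± 0.45 from -2.77 to -0.43 and was thus classed as resolved. Its excess over the control change did not pass (adjusted p = 0.0779). Grb14, an adaptor that damps insulin receptor signalling, rose by 1.74 ± 0.16 (adjusted p = 6.59e-05).

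Cholesterol synthesis, in contrast, was a late loss. Of 18 genes of the pathway 14 fell and 0 rose, with a median change of -1.08, and median CLA minus control moved from -0.15 to -1.06. For 7 of the 14 the deficit was new, and for 5 of the 14 the fall differed from the control change. Without day 10, or without replicate 2 of every group, 8 fell. Sqle, squalene epoxidase, read 8.75, 8.52, 8.10 and 8.15 and then 6.28 to 7.06 (median 6.67), against 7.31 to 8.45 on all control arrays. The later CLA arrays lay under every control array. Sqle fell by 1.72 ± 0.23 (adjusted p = 0.000713), from 0.39 to -1.29 relative to control. Idi1, the isopentenyl diphosphate isomerase, read 9.62, 9.30, 9.13 and 9.03 and then 7.51 to 8.10, and it fell by 1.58 ± 0.21 (adjusted p = 0.000857). Cyp51, the lanosterol demethylase, fell by 1.36 ± 0.21, and the difference from the control change passed for each of these genes (adjusted p = 0.0158, 0.018 and 0.0398).

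Upstream in the pathway Mvd fell by 1.10 ± 0.14 and Fdps by 1.21 ± 0.26, and at the branch point to sterols Fdft1, squalene synthase, fell by 1.27 ± 0.21. Downstream Msmo1 fell by 1.17 ± 0.16, Hsd17b7 by 1.11 ± 0.19 and Dhcr7, the last reductase, by 1.05 ± 0.22. Stard4, a sterol carrier, fell by 1.30 ± 0.20, but its control arrays changed by -0.70 and the difference did not pass (adjusted p = 0.318). Srebf2, the transcription factor of the pathway, fell by 0.49 ± 0.13 on the probe set used. Another Srebf2 probe set of like level changed by -1.65, from a CLA mean of 7.08 to 5.43. Hmgcs1, an early enzyme, did not pass (-0.21 ± 0.12).

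Genes of cholesterol export rose over the same days. In a list of 12 genes of efflux and of targets of the sterol receptor LXR, 7 rose and 1 fell, with a median of 0.98, and 6 or 7 rose in every one of the settings tried. The rise differed from the control change for 6 of the 7. Apoe, which carries exported lipid, read 10.34, 11.02, 11.22 and 11.50 and then 12.61 to 13.15, against 12.00 to 12.82 on control arrays. It rose by 1.85 ± 0.17 (adjusted p = 5.35e-05) and passed from -1.47 to 0.33 relative to control. Abca1, the exporter of cholesterol, rose by 1.51 ± 0.12 (adjusted p = 3.01e-05), from 9.81, 10.00, 10.39 and 10.22 to between 11.43 and 11.81. Cyp27a1, which makes an oxysterol, rose by 1.43 ± 0.12, Mylip, the ligase that removes the LDL receptor, by 1.25 ± 0.11, and Pltp, the phospholipid transfer protein, by 1.18 ± 0.18. Npc1, the lysosomal cholesterol exporter, was the member that fell (-0.54 ± 0.13).

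**Figure D3:**
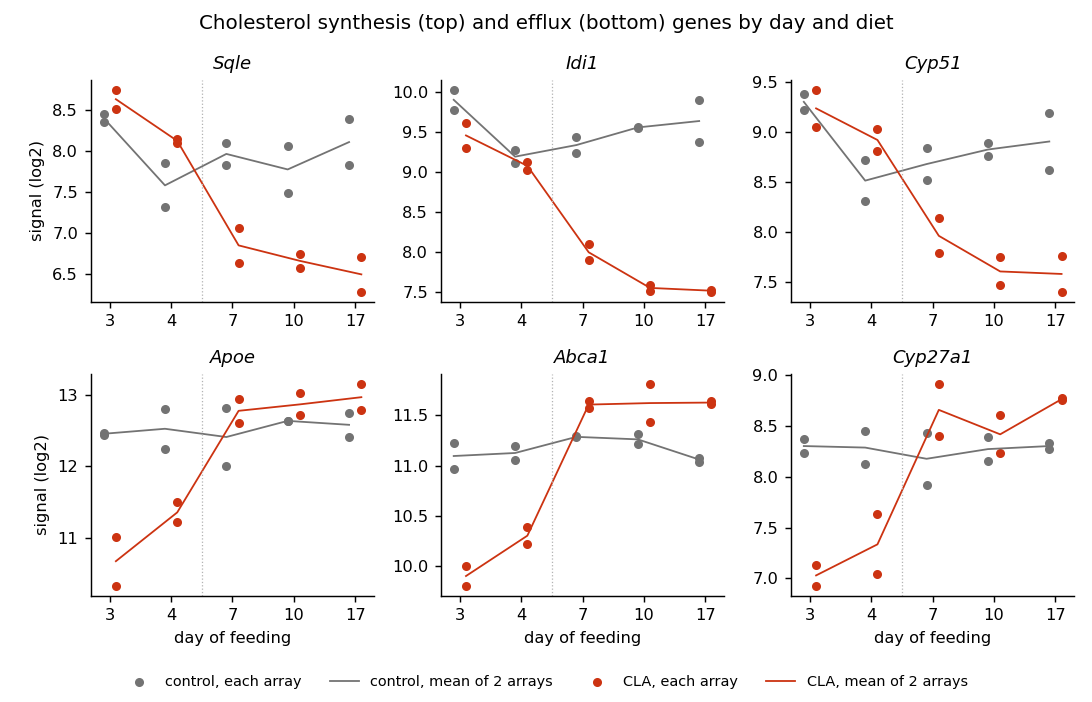
Signal (log2, vertical axes) of 3 cholesterol synthesis genes (top) and 3 efflux genes (bottom) by day of feeding (horizontal axes, days not to scale), points for arrays and lines through the means of 2 arrays, CLA in red and control in grey. The synthesis genes leave the control level on day 7, where Sqle reads 7.06 and 6.63, and the efflux genes reach or pass it.

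Genes of cell division fell together. Of 32 cell cycle genes measured 31 fell and 0 rose, with a median change of -1.60, and 29 to 32 fell in each setting tried. The member that did not pass was Tyms (-0.20 ± 0.10), whose probe set read 2.88 to 3.45 on the CLA arrays. The median CLA minus control was 3.37 on days 3 to 4 and 1.59 on days 7 to 17: 27 genes eased but stayed above control and 4 resolved. For 30 of the 31 the fall also differed from the control change.

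Plk1, the mitotic kinase, read 6.80, 7.59, 7.45 and 8.01, then 4.92 to 5.52, and 4.38 to 4.82 on all control arrays. The later CLA arrays remained above every control array, though the gap shrank from 3.03 to 0.70. Plk1 fell by 2.19 ± 0.14 (adjusted p = 1.06e-05). Mki67, the proliferation antigen, read 10.74, 10.36, 10.24 and 10.64 and then 8.36 to 8.85, and it fell by 1.80 ± 0.15 (adjusted p = 3.34e-05). It stayed 2.78 above control. Bub1, a spindle checkpoint kinase, fell by 2.11 ± 0.13, Cdc20, an activator of the anaphase complex, by 1.91 ± 0.15, and Top2a, the topoisomerase of dividing cells, by 1.57 ± 0.12. Of the replication genes, Rrm2, a subunit of ribonucleotide reductase, fell by 1.90 ± 0.19 and Pcna, the sliding clamp, by 0.76 ± 0.10.

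Outside the list, the largest falls also held genes of division: Rad51ap1, of recombination repair (fell by 2.31 ± 0.18), Kif2c, a kinesin (fell by 2.15 ± 0.12), Kntc1, of the kinetochore (fell by 2.12 ± 0.15), E2f7, a repressor of replication genes (fell by 1.90 ± 0.11), and Dtl, of replication licensing (fell by 1.87 ± 0.12). Kntc1, E2f7 and Dtl were classed as resolved, being 0.92, 0.33 and 0.71 above control on days 7 to 17. Hmga2, a chromatin protein of growing mesenchymal cells, fell by 2.21 ± 0.36 and stayed 2.01 above control. Summed macrophage markers did not fall with them: the signal of a list of 20 general macrophage genes was 14.72 to 15.39 on the earlier and 15.42 to 15.60 on the later CLA arrays.

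Because sets of genes moved together, promoters of strongly changed members that the table holds are shown (Sqle, Cd74 and H2-Ab1 are named only), 300 bases around the start site from RefSeq (build GRCm38.p6), with matches in capitals on either strand to CCAAT (reverse ATTGG), the box bound by NF-Y, and to TTTGAA (reverse TTCAAA), the core of the cell cycle homology region. Matches of the 2 motifs may share bases, and a match is a description. The first 3 are the cell cycle genes Plk1 at chr7:122159185-122159484 (+ strand), Bub1 at chr2:127831810-127832109 (- strand) and Cdc20 at chr4:118437294-118437593 (- strand). The next 2 are the cholesterol genes Idi1 at chr13:8885356-8885655 (+ strand) and Cyp51 at chr5:4104648-4104947 (- strand), and the last 2 the class II genes H2-Eb1 at chr17:34305617-34305916 (+ strand) and H2-Aa at chr17:34287774-34288073 (- strand), whose values are given further on.
Plk1: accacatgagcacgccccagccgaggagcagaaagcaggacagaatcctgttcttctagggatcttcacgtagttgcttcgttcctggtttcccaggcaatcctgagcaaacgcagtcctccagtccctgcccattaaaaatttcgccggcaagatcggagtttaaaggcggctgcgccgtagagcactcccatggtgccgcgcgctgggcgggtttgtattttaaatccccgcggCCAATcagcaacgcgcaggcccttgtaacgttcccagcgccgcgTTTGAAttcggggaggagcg
Bub1: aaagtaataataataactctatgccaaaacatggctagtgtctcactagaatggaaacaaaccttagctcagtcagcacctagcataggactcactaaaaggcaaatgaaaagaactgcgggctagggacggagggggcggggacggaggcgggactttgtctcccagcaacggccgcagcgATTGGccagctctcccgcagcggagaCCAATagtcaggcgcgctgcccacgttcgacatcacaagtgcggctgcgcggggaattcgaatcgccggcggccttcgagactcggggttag
Cdc20: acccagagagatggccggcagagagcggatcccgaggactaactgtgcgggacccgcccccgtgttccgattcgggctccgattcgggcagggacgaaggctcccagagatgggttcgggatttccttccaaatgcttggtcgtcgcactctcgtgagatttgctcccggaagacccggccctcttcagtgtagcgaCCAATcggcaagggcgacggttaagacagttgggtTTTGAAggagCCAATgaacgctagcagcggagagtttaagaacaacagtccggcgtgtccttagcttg
Idi1: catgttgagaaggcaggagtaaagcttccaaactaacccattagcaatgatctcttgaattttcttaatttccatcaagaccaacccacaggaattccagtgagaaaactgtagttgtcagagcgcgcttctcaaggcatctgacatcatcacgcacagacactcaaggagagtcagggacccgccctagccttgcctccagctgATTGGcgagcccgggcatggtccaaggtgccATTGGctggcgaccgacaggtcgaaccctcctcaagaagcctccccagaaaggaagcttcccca
Cyp51: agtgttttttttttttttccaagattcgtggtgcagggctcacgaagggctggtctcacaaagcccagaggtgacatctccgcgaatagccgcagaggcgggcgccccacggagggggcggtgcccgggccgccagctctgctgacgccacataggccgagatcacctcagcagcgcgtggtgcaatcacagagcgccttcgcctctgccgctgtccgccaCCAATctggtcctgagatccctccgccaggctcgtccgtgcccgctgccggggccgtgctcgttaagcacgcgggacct
H2-Eb1: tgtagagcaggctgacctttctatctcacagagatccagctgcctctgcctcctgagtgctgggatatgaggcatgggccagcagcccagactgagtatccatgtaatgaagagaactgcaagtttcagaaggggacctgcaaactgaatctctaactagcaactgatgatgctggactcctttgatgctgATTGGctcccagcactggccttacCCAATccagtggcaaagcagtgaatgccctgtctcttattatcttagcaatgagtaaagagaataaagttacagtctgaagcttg
H2-Aa: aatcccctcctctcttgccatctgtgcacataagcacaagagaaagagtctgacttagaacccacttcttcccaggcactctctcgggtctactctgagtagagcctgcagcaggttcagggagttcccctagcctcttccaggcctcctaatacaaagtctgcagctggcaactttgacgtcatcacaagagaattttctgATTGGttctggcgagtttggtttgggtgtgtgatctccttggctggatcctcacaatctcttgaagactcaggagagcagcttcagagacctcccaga
Of 27025 genes with a promoter in the table, 41.1% held a CCAAT match and 20.2% a TTTGAA match. Of the 31 cell cycle genes that fell 26 had a promoter there, and 21 of these (80.8%) held CCAAT and 13 (50.0%) TTTGAA. Of the 14 cholesterol genes that fell 10 had one, 10 with CCAAT and 1 with TTTGAA. Of the 7 class II and costimulation genes that rose 3 had one, 3 with CCAAT and 0 with TTTGAA. Plk1 held 1 of each, Cdc20 held 2 and 1, and Bub1, Idi1 and H2-Eb1 held 2 CCAAT matches alone.

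General macrophage genes rose in small steps. In the list of 20 general macrophage genes 11 rose and 0 fell, with a median of 0.47. The count was 1 without day 3, 4 without replicate 1 of every group and 3 without replicate 2, and 2 of the 11 differed from the control change. Adgre1, a macrophage surface antigen, rose by 0.47 ± 0.12 (adjusted p = 0.0283) from 2.80 to 3.28 above control, and Ms4a7, a membrane protein of mature macrophages, by 1.08 ± 0.16. The Fc receptors Fcgr3 and Fcgr2b rose by 0.89 ± 0.17 and 0.80 ± 0.15. Cd68 changed by -0.04 ± 0.17 and lay 3.41 above control on days 7 to 17.

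Clec7a, the fungal glucan receptor dectin-1, added to a small earlier excess. It read 7.16 and 7.28 on day 3, 8.32 and 8.53 on day 4, and 10.37 to 10.94 later, while control arrays stayed between 6.26 and 7.11. It rose by 2.83 ± 0.28 (adjusted p = 0.000112). Gpr34, a lysophospholipid receptor of macrophages and microglia, was near control first (4.90 to 5.39) and at 6.99 to 8.24 later, a new gain of 2.59 ± 0.26 (adjusted p = 0.000123). Itgax, the integrin CD11c, rose by 1.95 ± 0.24 from 6.41, 6.48, 6.85 and 6.87 to between 8.16 and 9.11. Its highest arrays were those of day 17. Lcn2, an iron-scavenging lipocalin, rose by 2.17 ± 0.19 and Cd83, a maturation marker of antigen-presenting cells, by 1.58 ± 0.19.

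In a list of 18 genes of lipid-associated macrophages 6 rose and 0 fell, among them the elastase Mmp12 (1.25 ± 0.24, to 7.49 above control), the protease Ctsk (1.16 ± 0.23) and the proton pump subunit Atp6v0d2 (0.91 ± 0.16). Trem2, the lipid receptor of these cells, changed by 0.88 ± 0.27 (adjusted p = 0.0666) and Gpnmb by 0.41 ± 0.23, neither past the threshold. The count was 3 without day 10 and 3 with the CLA arrays fitted alone, and 2 of the 6 differed from the control change.

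Markers of alternative activation went in opposite directions, 4 higher and 3 lower of 16. The change differed from the control change for 2 of the 4 and 3 of the 3, and 2 rose without day 3 or without either replicate of every group. Chil3, a chitinase-like protein, had the largest fall of all named genes. It read 8.77, 8.37, 7.99 and 7.16 on days 3 and 4 and 3.45 to 4.58 (median 3.81) later, within the control range of 2.92 to 4.09 on all but 1 array. It fell by 4.21 ± 0.23 (adjusted p = 8.81e-06), and CLA minus control went from 4.63 to 0.45. Arg1, arginase, fell by 2.12 ± 0.45 (adjusted p = 0.0131) with its lowest arrays on day 17 (4.67 and 5.26), and Clec10a, a galactose lectin, fell by 1.02 ± 0.14. Conversely Retnla rose by 1.37 ± 0.18 and Cd163, a scavenger receptor of resident macrophages, by 0.88 ± 0.12, both from a deficit that resolved. Cd5l, an inhibitor of macrophage death, fell by 2.12 ± 0.30 and Slfn4, a myeloid growth regulator, by 2.41 ± 0.23, both to levels still 1.90 and 1.68 above control.

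Chemokines that draw monocytes fell. Of 25 chemokine and receptor genes 7 fell and 3 rose, and 6 to 8 fell in each setting tried. The fall differed from the control change for 5 of the 7 and the rise for 1 of the 3. Ccl2, the main monocyte attractant, read 10.84, 10.88, 10.90 and 10.77 and then 8.74 to 9.59, and it fell by 1.65 ± 0.24 (adjusted p = 0.00139). It remained 3.47 above control. Ccl12 fell by 2.16 ± 0.21, Ccl7 by 1.65 ± 0.22, Ccl3 by 1.30 ± 0.16, and the chemokine receptor Ccr1 by 1.63 ± 0.25. Those that rose were Cxcl13, the B cell attractant (1.21 ± 0.31), the scavenger chemokine Cxcl16 (1.15 ± 0.12) and the receptor Cxcr4 (1.18 ± 0.27). Among cytokines Il10 fell by 1.41 ± 0.12 (adjusted p = 4.61e-05) to 0.61 above control. The interleukin 1 antagonist Il1rn changed by -1.43 ± 0.41 (adjusted p = 0.0523), and Tnf, Il6, Ptx3 and Saa3 did not pass (-0.21 ± 0.11, -0.03 ± 0.10, -0.11 ± 0.22 and -0.32 ± 0.22). Il6 was dim, with CLA means of 3.08 and then 3.05, so a lack of change is not shown for it.

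Antigen presentation was a late gain. Of 12 genes of MHC class II and costimulation 7 rose and 0 fell, with a median of 0.70, 6 of them newly gained, and 6 or 7 rose in each setting tried. The rise differed from the control change for 5 of the 7. H2-Eb1, a class II beta chain, read 9.22, 9.81, 9.77 and 9.81 on days 3 and 4 and 11.14 to 12.01 later, with all control arrays between 9.62 and 10.13. Every later CLA array exceeded every control array. The rise was 1.90 ± 0.18 (adjusted p = 6.88e-05), from -0.21 to 1.58 relative to control. The invariant chain Cd74 rose by 1.71 ± 0.24, H2-Ab1 by 1.69 ± 0.20, H2-Aa by 1.61 ± 0.16 and the peptide loader H2-DMa by 1.32 ± 0.17. The class II transactivator Ciita rose by 0.63 ± 0.10 and the costimulatory ligand Cd86 by 0.77 ± 0.15. Of 20 T and NK cell genes 0 passed, with a summed signal of 10.41 to 10.66 earlier and 10.29 to 11.22 later. Among 11 B and plasma cell genes 2 rose: Cd22 (1.03 ± 0.15) and the immunoglobulin chain Ighm (0.91 ± 0.18), which changed by 0.79 on the control arrays as well. Of 11 neutrophil genes 0 passed.

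Mast cell genes were gained in parallel. Of 10 such genes 6 rose, and all 10 changes were above 0, with a median of 0.73. The carboxypeptidase Cpa3 read 6.97, 7.34, 6.85 and 7.12 and then 8.17 to 9.20 (median 8.84), with control arrays between 6.60 and 7.28. It rose by 1.69 ± 0.20 (adjusted p = 0.000322). The chymases Cma1 and Mcpt4 rose by 1.71 ± 0.21 and 1.64 ± 0.28, the tryptase Tpsb2 by 1.32 ± 0.32 and the IgE receptor chain Fcer1a by 1.04 ± 0.10. Kit, the receptor of the mast cell growth factor, and Hdc, the histamine-forming enzyme, changed by 0.42 ± 0.22 and 0.29 ± 0.12 and did not pass. Both were dim, with earlier and later CLA means of 3.65 and 4.06 (Kit) and 4.36 and 4.65 (Hdc). The summed signal of the list was 8.61 to 8.97 on the earlier and 9.69 to 10.65 on the later CLA arrays, with no overlap, and 8.83 to 9.20 on all control arrays. Without day 3 the count was 3, and 3 of the 6 differed from the control change.

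**Figure D4:**
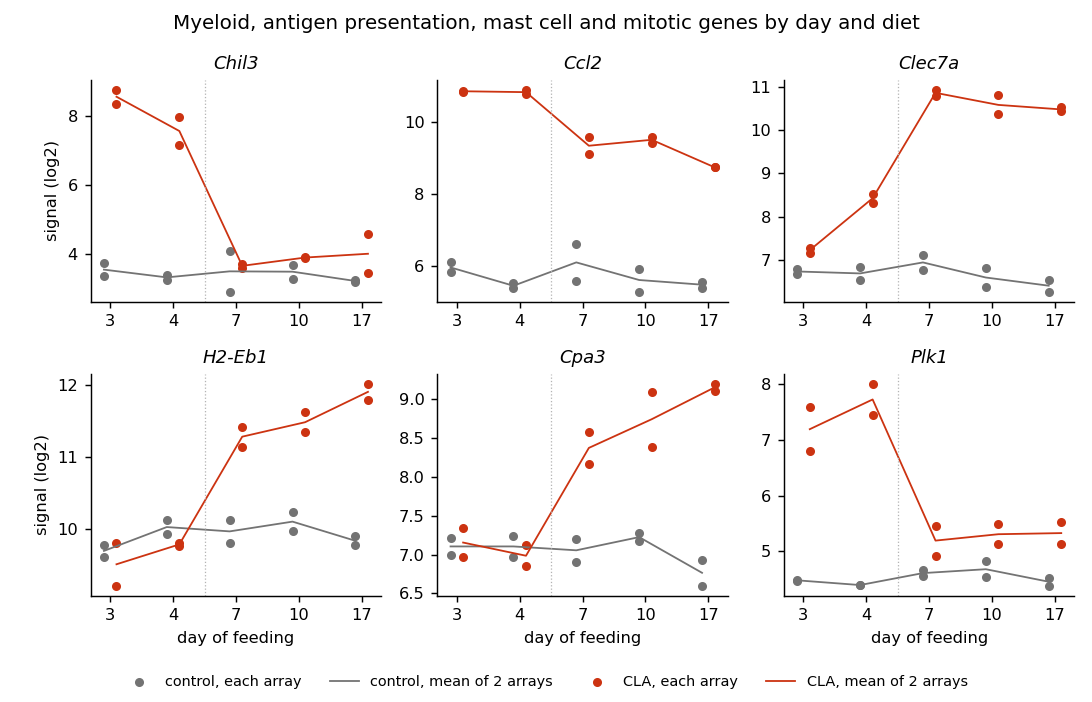
Signal (log2, vertical axes) of 6 genes of myeloid cells, antigen presentation, mast cells and mitosis by day of feeding (horizontal axes, days not to scale), points for arrays and lines through the means of 2 arrays, CLA in red and control in grey. Chil3, Ccl2 and Plk1 drop between days 4 and 7, and Clec7a, H2-Eb1 and Cpa3 rise over the same step.

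Complement genes of the first component rose as well, with 6 of 10 higher and 0 lower: C1qa (1.07 ± 0.25), C1qb (0.80 ± 0.13), C1qc (1.03 ± 0.22), C1ra (1.06 ± 0.19), C1s1 (1.13 ± 0.19) and the inhibitor Serping1 (0.93 ± 0.19). The count was 2 without day 3, without day 10, without replicate 2 of every group or with the CLA arrays fitted alone, and 2 of the 6 differed from the control change.

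Some matrix and stromal genes changed late, where 4.51% of all genes rose and 5.28% fell. Mmp3, the protease stromelysin, read 6.56, 6.90, 7.39 and 6.40 and then 7.76 to 10.21, highest on day 17, a gain of 2.31 ± 0.45 (adjusted p = 0.00804). Its excess over the control change did not pass (adjusted p = 0.0927). Mmp2, the gelatinase of fibroblasts, rose by 1.75 ± 0.27 and Mmp14, its membrane activator, by 1.14 ± 0.23. In all, 8 of 21 matrix proteases and inhibitors rose and 2 fell, but 2 rose without day 3 or day 10, and 2 of the 8 differed from the control change. Of 34 collagens and matrix proteins 4 rose, including the proteoglycans Lum (1.39 ± 0.18, adjusted p = 0.000692) and Dcn (0.89 ± 0.15), and 1 fell, Tnc, a matrix protein of wounds (-1.05 ± 0.25). Col1a1 did not pass (0.50 ± 0.28). The count of rises among collagens and matrix proteins was 14 without day 7, 11 without CLA day 7 replicate 1 alone, 10 or 11 with arrays as the unit and 1 without replicate 2 of every group, and 1 of the 4 differed from the control change. The fibulin gene Fbln7 rose by 2.27 ± 0.40 and Cnmd, a cartilage glycoprotein, by 2.26 ± 0.56. Their excess over the control change did not pass (adjusted p = 0.0557 and 0.188). Cnmd was dim on days 3 to 4, with a CLA mean of 3.26, and its call was lost in 5 of 38 settings.

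Of 20 genes of the TGF-beta and activin family 8 rose and 1 fell. Fst, follistatin, the activin antagonist, read 6.92, 6.63, 6.58 and 6.52 and then 7.61 to 9.13, a rise of 1.73 ± 0.26 (adjusted p = 0.00174) from -0.66 to 1.19 relative to control. Ltbp1, which stores latent TGF-beta, rose by 1.05 ± 0.17 and the receptor Tgfbr1 by 0.96 ± 0.12, while Tgfbi, an induced matrix protein, fell by 0.97 ± 0.17. Among 17 progenitor and fibroblast genes 4 rose, with Pdgfra, the receptor that marks progenitors, at 1.15 ± 0.17, the protease Fap at 0.93 ± 0.13 and Pi16 at 0.59 ± 0.13. Without day 4 the TGF-beta and activin family count was 3. The progenitor count was 2 without any 1 of days 3, 4 and 10 or without replicate 1 of every group, and 1 without replicate 2. The rise differed from the control change for 3 of the 8 and 3 of the 4 genes. Of 19 endothelial genes 1 rose, the angiopoietin receptor Tek (0.91 ± 0.18), a share near the 4.51% of all genes that rose. Median CLA minus control for the 19 was -1.13 and then -0.95.

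Some stress genes fell, not all of them from an excess over control. In a list of 30 integrated stress and unfolded protein response genes 8 fell and 0 rose, of which Mthfd2, of mitochondrial folate metabolism, fell by 0.97 ± 0.12 (adjusted p = 0.000423), Shmt2 by 0.79 ± 0.13 and the chaperone Pdia4 by 0.65 ± 0.17. This count was 4 without any 1 of days 3, 4 and 7 and 1 without replicate 2 of every group, and 3 of the 8 differed from the control change. Of 17 cytosolic heat shock genes 4 fell, led by Cryab (-1.11 ± 0.32) and Hspb1 (-1.04 ± 0.13), and all 17 changes were below 0. Relative to control, Hspb1 went from 1.07 to 0.05, whereas Cryab went from 0.03 to -1.13, a deficit classed as newly gained. The count for heat shock genes ran from 0 to 11 over the settings tried, and the call of Cryab was lost in 22 of 38. The fall differed from the control change for 1 of the 4. Of 18 NRF2 target genes 3 fell, including Hmox1, heme oxygenase (-0.75 ± 0.18). That count ran from 0 to 3 over the settings tried, and 0 of the 3 differed from the control change. Median CLA minus control of the NRF2 list was 0.04 and then 0.01. Of 17 immediate early genes 2 rose and 2 fell: Atf3 and Egr2 rose by 0.82 ± 0.13 and 1.01 ± 0.16, to 4.71 and 4.15 above control, and Fosl1 and Fos fell by 1.14 ± 0.17 and 0.72 ± 0.13, still 1.64 and 3.78 above control. Of 25 interferon response genes 2 fell, Oas2 (-0.57 ± 0.11) and Mx1 (-0.50 ± 0.14), where 5.28% of all genes fell. The fall differed from the control change for 1 of the 2. Of 14 glucocorticoid response genes 6 rose, among them Sgk1 (1.04 ± 0.16), Klf9 (0.93 ± 0.12) and Tsc22d3 (0.96 ± 0.19), and 3 rose without day 3. The rise differed from the control change for 3 of the 6. Hsd11b1, which activates the hormone in fat, changed by -0.01 ± 0.20 and lay at -2.81 and -2.90 relative to control.

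The other lists moved little or in single members, where 4.51% of all genes rose and 5.28% fell. Glipr1, a secreted protein outside the lists, rose by 1.36 ± 0.17, from 3.94 to 5.17 above control, and Ncan, a brain proteoglycan, fell by 1.32 ± 0.36, a deficit classed as newly gained. The difference of the Ncan fall from the control change did not pass (adjusted p = 0.222). Of 30 lysosome genes 2 rose, the protease Ctsh (0.68 ± 0.11) and the transcription factor Mitf (0.48 ± 0.12), and 1 fell. The rise differed from the control change for 1 of the 2, and the 1 fall did not. Of 12 NF-kB genes Birc3 rose (0.49 ± 0.11) and Bcl3 fell (-0.55 ± 0.11), and neither differed from the control change. Of 16 apoptosis genes 2 rose, including Casp1 (0.62 ± 0.12), the inflammasome caspase, and 2 fell, Bcl2l1 (-0.57 ± 0.12) and Bid (-0.52 ± 0.13). None of these apoptosis genes differed from the control change. Of 25 insulin and glucose genes 5 rose, among them the glycogen genes Ppp1r3c (0.94 ± 0.26), whose call was lost in 22 of 38 other settings, and Pygl (0.69 ± 0.14). That count was 3 without CLA day 3 replicate 1, CLA day 7 replicate 2 or CLA day 10 replicate 2, 2 without day 4 or day 10, and 1 without replicate 2 of every group. The rise differed from the control change for 2 of the 5. Of 17 clock genes 1 rose, Nr1d2 (0.85 ± 0.12). Nr1d2 changed by 0.47 on the control arrays as well, and the difference did not pass (adjusted p = 0.294). Resistin (Retn), the neutrophil protein gene S100a8 and the protease inhibitor Timp1 did not pass, at -0.17 ± 0.10, 0.33 ± 0.49 and -0.33 ± 0.23.

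Markers of neighbouring tissues were measured as well. Of markers of kidney, mesothelium, exocrine pancreas and erythroid cells 0 of 10, 0 of 11, 0 of 6 and 0 of 4 passed. Of 12 adrenal genes 1 fell, the steroidogenic carrier Star (-1.16 ± 0.21, from 1.66 to 0.31 above control), and their summed signal was 8.54 to 8.72 and then 8.16 to 8.50 under CLA. Their part in the changes above was not tested.

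**Figure D5:**
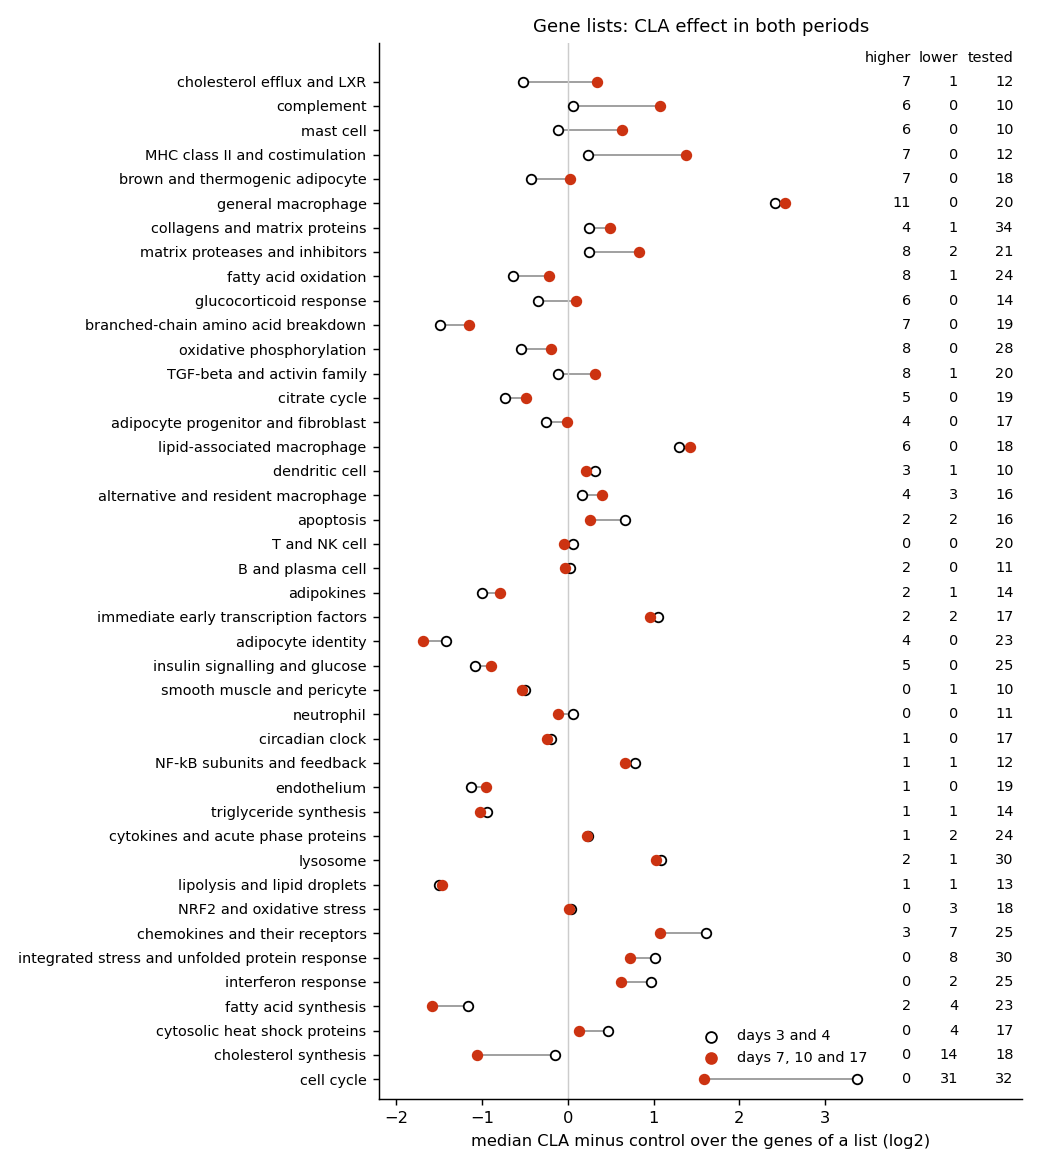
Median CLA minus control (horizontal axis, log2) over the genes of each list on days 3 and 4 (open circles) and on days 7, 10 and 17 (red), ordered by the median later minus earlier change within CLA, with the number of genes that rose, that fell and that were tested at the right. Cell cycle moves from 3.37 to 1.59, cholesterol synthesis from -0.15 to -1.06 and MHC class II from 0.23 to 1.38, whereas adipocyte identity stays near its earlier level.

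Days within a period were compared with the array as the unit, which the labels may not allow. Among CLA arrays, day 4 against day 3 gave 1 called gene, and the F test over days 7, 10 and 17 gave 27, of which 11 were among the genes called between periods. On control arrays these counts were 0 and 37. With 2 arrays a day these counts do not show that the days were alike: Clec7a read 7.16 and 7.28 on day 3 and 8.32 and 8.53 on day 4.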

How the data were processed

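The deposited log2 values of 28 arrays were made by the authors with RMA, per the submitters' processing notes; the version is not given in the sources used here. RMA shares its quantile step over arrays, so levels are relative. Of 45101 probe sets 34958 name 1 gene, and each of 18194 genes was represented by its probe set with the highest mean. The 2 arrays of a diet and day were averaged, and the 10 day means were fitted in limma 3.58.1 (R 4.3.3) as 4 groups of diet and period, with adjusted p over all genes under 0.05 as the call. The fit was tested on simulated data. Plots used matplotlib 3.10.9. Where the arrays of a group come from 1 pool, the array spread is technical, and the day spread is what p-values measure.

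Genes named were the largest changes overall and in each class, up to 3 called members of each list and a fixed set. For the largest changes, genes whose later and earlier CLA arrays overlapped were left out, as were predicted genes without a name. Non-overlap of those genes was thus a condition of their choice and is no support for them. Further list members were named after their values were seen. Members and lists were chosen with earlier results of these data known. Alternatives were other units and blocks, normalizations, probe sets and filters, and leaving out days, replicates or arrays.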

Additional observations from a re-analysis of the deposited data

Results flagged for a closer look

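In 378 CLA groups of arrays examined for the genes above (4 earlier or 6 later arrays of a gene), 20 held an array far from the others by Dixon's criterion, where chance gives about 5%. Of these, 9 were on CLA day 3 replicate 1. CLA day 4 replicate 1 was the lowest of its period for Hmga2 at 8.34. CLA day 7 replicate 1 was the highest of its period for Kntc1 at 4.66, Bub1 at 6.07. CLA day 7 replicate 1 was the lowest of its period for H2-Aa at 12.27. CLA day 4 replicate 2 was the lowest of its period for Otop1 at 2.79, Klf9 at 9.37. CLA day 3 replicate 1 was the highest of its period for E2f7 at 6.99, Dtl at 6.71, Mitf at 9.02. CLA day 3 replicate 1 was the lowest of its period for Birc3 at 8.04, H2-Eb1 at 9.22, H2-Ab1 at 8.34, Cma1 at 6.60, Col1a1 at 9.55, C1qc at 9.09. CLA day 10 replicate 1 was the lowest of its period for Thrsp at 10.85, Dhcr7 at 6.34. CLA day 17 replicate 1 was the highest of its period for Pi16 at 9.29, Cxcl16 at 8.10. CLA day 3 replicate 2 was the lowest of its period for Nr1d2 at 7.46. Without CLA day 3 replicate 1 there were 919 rises and 1144 falls.

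The CLA change differed from the control change, by limma's test of that difference, for 257 genes upwards and 400 downwards. The 5 largest upward differences were 4.88 for Ucp1, 4.05 for Cidea, 3.58 for Fabp3, 2.98 for Gpr34 and 2.91 for Cox8b. The 5 largest downward ones were -4.18 for Chil3, -2.68 for Arg1, -2.35 for Rad51ap1, -2.33 for Plk1 and -2.29 for Slfn4.

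Among 10092 probe sets that name no single gene, which entered no comparison above, 56 were higher and 97 lower on the later CLA arrays, and 0 passed on the control arrays in the same limma fit.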

How the results depend on the processing

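There were 41 settings in all, the main one included, of which up to 38 others gave values for single genes. In these others the 208 genes followed gave 7892 values, of which 535 lost a call, 44 gained one and 0 reversed. Of 168 called genes followed 78 lost none. On the control arrays 0 genes were called in the 40 settings that gave a control count, which the fit with the day as a block does not. Among genes named above, calls lost in over 12 of 38 settings were those of Npc1 (13), Hmox1 (14), Ncan (16), Pck1 (17), Cryab (22), Ppp1r3c (22) and Mx1 (23). Of 155 further probe sets of called genes 12 had the opposite sign, 0 of them by at least 0.5. The cause of these shifts was not tested. Signal over background limits dim genes such as Tyms, Dio2, Zic1, Prdm16, Il6, Kit and Hdc.

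Rises within CLA (820) numbered 469 with the CLA arrays fitted alone, 347 without day 3, 337 without day 10, 493 without day 17 and 157 if a change of 1 was required. Falls (960) numbered 490, 517 and 225 without day 3, without day 10 and with that requirement. Newly gained genes (143) numbered 94 with the CLA arrays alone, 54 without day 3, 77 without day 10, 92 without day 17 and 60 with the requirement, and resolved genes (360) numbered 96 with it. Higher differences from control (257) numbered 514 with 6 against 4 arrays, 457 with a random block, 413 with the day as a block, 36, 48 and 109 without days 3, 10 and 17, and 122 with the requirement. Lower ones (400) numbered 629 with 6 against 4 arrays, 167, 262, 170 and 253 without days 3, 4, 10 and 17, and 207 with the requirement. Leaving out replicates gave 263 to 919 rises, 337 to 1144 falls, 163 to 427 resolved and 78 to 151 newly gained genes, 20 to 311 higher and 82 to 447 lower differences. The lowest of each came without replicate 2 of every group, when 579 of 600 calls were shared with the main 1780. Higher differences also dropped to 128 without control day 7 replicate 2 and 169 without CLA day 10 replicate 1.

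Deviations between the replicates of a group correlated at -0.09 to 0.39 between the 10 groups, with a median of 0.133. Whether the replicate numbers pair the arrays is therefore not settled. With arrays as the unit and the replicate number as a block, 1132 genes rose and 1100 fell, with 538 higher differences, against 880, 877 and 364 without the block.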
